A study of Mus musculus with 6 samples.

Results

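The genes described here encode the protein core of the splicing machinery and its best known regulators. They were chosen by gene symbol alone, as every probe whose symbol on the array begins with Sfrs, Srsf, Hnrp, Hnrnp, Sf3a, Sf3b, Snrp, Lsm or Prpf (for Sfrs, Srsf, Lsm and Prpf followed by a digit). This took 129 of the 25697 probes, under 79 of 18138 symbols, which stand for 75 genes under current names. No measured value entered the rule, although the members were chosen with earlier results of these data known. The symbols also took in 4 Lsm genes that are not spliceosomal (Lsm1, Lsm12, Lsm14a and Lsm14b) and 2 (Lsm10 and Lsm11) of the U7 particle, which processes histone messages.

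The arrays held total RNA of whole lung from male FVB mice (FVB/N in the methods) at postnatal day 6, with 3 hSRY-OFF and 3 hSRY-ON animals, and compared the organ with and without activation of human SRY, the testis-determining transcription factor. Both labels refer to Signalox-hSRY, a single-copy transgene at the H11 locus of chromosome 11, in which the ubiquitous CAG promoter drives DsRed2 until Cre recombination places FLAG-tagged human SRY with IRES-EGFP behind it. In hSRY-ON animals the recombination came from Cre that Ddx4-Cre mothers deposited in the oocyte, and the animals used for the arrays had not inherited the Ddx4-Cre transgene. hSRY-OFF denotes the transgene without recombination, although littermates lacking it are called controls in the study too, so the transgene status of the 3 hSRY-OFF animals rests on the label. The model is a single insertion in 1 mouse line, SRY was switched on throughout the body, and hSRY-ON pups grew poorly and lacked milk in the stomach. The array has no probe for human SRY, so activation could not be read from these data.

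Introns are removed from messenger RNA precursors by the spliceosome, which assembles on each intron from small nuclear ribonucleoproteins (snRNPs). Sm and Lsm proteins form rings around the snRNAs, the SF3a and SF3b complexes hold the U2 snRNP at the branch point, and the Prpf proteins act in the U4/U6.U5 tri-snRNP and in activation. SR proteins mostly promote the use of nearby splice sites, and hnRNPs package nascent RNA and often repress or redirect splicing.

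Promoter sequences are shown for 5 members on which the account below turns, so that the most strongly lowered SR gene (Srsf7), a second lowered SR gene (Srsf3) and the lowered hnRNP pair Hnrnpa1 and Hnrnpa2b1 can be set beside an SR gene that was not lowered (Srsf5). Each is the 250 bases before the annotated start in RefSeq (build GRCm38.p6), 5′ to 3′ on the strand of the gene, for Srsf7 chr17:80207306-80207555 (minus), Srsf3 chr17:29032410-29032659 (plus), Hnrnpa1 chr15:103240147-103240396 (plus), Hnrnpa2b1 chr6:51469895-51470144 (minus) and Srsf5 chr12:80945249-80945498 (plus). Capitals mark the letters of any of 6 motifs searched on both strands, none of which overlap each other here. They were the ETS motif CCGGAAG, the box named for its letters CCAAT, the TATA motif TATAAA, the E-box CACGTG, the E2F motif TTTCCCGC and the YY1 motif AAGATGGCG.
Srsf7: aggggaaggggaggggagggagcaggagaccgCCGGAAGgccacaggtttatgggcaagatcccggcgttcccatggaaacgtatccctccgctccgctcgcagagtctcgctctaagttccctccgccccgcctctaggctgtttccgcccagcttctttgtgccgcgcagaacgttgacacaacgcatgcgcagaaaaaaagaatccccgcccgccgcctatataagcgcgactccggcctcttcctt
Srsf3: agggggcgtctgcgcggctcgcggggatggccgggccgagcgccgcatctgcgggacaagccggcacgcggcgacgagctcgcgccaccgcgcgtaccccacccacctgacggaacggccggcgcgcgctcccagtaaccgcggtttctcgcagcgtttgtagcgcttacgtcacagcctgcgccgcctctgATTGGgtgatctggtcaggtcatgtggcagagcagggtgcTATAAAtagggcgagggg
Hnrnpa1: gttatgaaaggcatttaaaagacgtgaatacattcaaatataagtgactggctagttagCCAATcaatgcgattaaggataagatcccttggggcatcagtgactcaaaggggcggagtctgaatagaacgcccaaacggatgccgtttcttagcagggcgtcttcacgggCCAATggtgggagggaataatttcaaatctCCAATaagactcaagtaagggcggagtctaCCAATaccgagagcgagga
Hnrnpa2b1: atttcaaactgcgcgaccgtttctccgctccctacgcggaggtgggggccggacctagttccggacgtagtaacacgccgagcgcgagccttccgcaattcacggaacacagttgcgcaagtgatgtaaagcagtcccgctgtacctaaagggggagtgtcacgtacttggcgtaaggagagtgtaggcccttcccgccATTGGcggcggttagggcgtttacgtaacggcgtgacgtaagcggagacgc
Srsf5: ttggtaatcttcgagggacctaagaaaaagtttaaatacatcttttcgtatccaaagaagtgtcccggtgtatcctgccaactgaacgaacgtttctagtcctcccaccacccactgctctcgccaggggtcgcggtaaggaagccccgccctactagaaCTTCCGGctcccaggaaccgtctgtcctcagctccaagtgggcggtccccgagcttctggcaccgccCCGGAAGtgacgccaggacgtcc

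The Srsf7 promoter held 1 ETS match, that of Srsf3 held 1 CCAAT and 1 TATAAA, that of Hnrnpa1 held 4 CCAAT copies, that of Hnrnpa2b1 held 1 CCAAT, and that of Srsf5 held 2 ETS matches. Of the 75 genes, 64 had a promoter in the table. The ETS letters were in 28.1% of these windows and in 7.05% of all 27025 windows of the same length. They did not separate lowered from other members, being in 5 of the 20 lowered genes with a window and in 10 of the 33 tested genes without a call. TATAAA was in 5 of the 20 lowered genes (Hnrnpm, Sf3b3, Snrpa, Srsf2 and Srsf3), in 0 of the 33 tested genes without a call and in 13.0% of all windows. CCAAT was in 11 of the 20, in 13 of the 33 and in 34.5% of all windows. The median GC content was 58.6% in the 20, 60.4% in the 33 and 52.0% over all windows. These matches describe letters only, and the 2 sets were formed after the calls were known, so they were not tested.

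The test covered 13841 probes, those with a detection p under 0.05 on 3 or more arrays. The values are background-corrected, quantile-normalized log2 intensities, and changes are hSRY-ON minus hSRY-OFF from a limma fit over all 13841 probes, with Benjamini-Hochberg adjusted p under 0.05 as the threshold. Each array detected between 13191 and 14134 probes. The lung markers Sftpc, Sftpb, Ager, Pdpn, Scgb1a1 and Pecam1 were detected on all 6 arrays. With 3 animals a group, the p-values set the difference between groups against the spread within them, partly pooled over all tested probes. In bulk lung, fewer cells of a type and less RNA per cell cannot be told apart.

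Every member probe that passed the test was lower in hSRY-ON lung. Of the 129 probes, 96 (62 genes) were tested, and 34 of them, in 22 genes, fell in hSRY-ON, while 0 rose. The share called lower was 35.4%, against 13.3% of all tested probes, and 13.6% of all tested probes were called higher. The median change of the 96 probes was -0.35 on the log2 scale, against -0.03 for all tested probes. Most of the falls were modest. Among the 34, the median size was 0.67 on the log2 scale (range 0.37 to 1.60), and 4 probes fell by at least 2-fold (4.19% of all tested probes did, and 5.51% rose by as much). The other 62 probes did not pass, and 48 of these had negative and 14 positive changes, the highest being 0.42. Of all 96 probes, 85.4% had negative changes, against 53.2% of all tested probes. At an unadjusted p under 0.05, limma gave 47 lower and 1 higher member probes. That is 48 of 96, beside 5668 of all 13841 tested probes in either direction. The alternatives gave 0 to 2 higher member probes after adjustment.

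The arrays separated in the same way. All 3 hSRY-ON values lay below all 3 hSRY-OFF values for 50 of the 96 probes and above them for 2, with overlap in 44 (over all tested probes, 24.1% lay below and 22.4% above). The median deviation of the 96 probes from the hSRY-OFF mean was 0.03, 0.00 and -0.02 in hSRY-OFF replicates 1 to 3, and -0.39, -0.38 and -0.30 in hSRY-ON replicates 1 to 3. For all tested probes the hSRY-ON values were -0.03, -0.03 and -0.02. The count of calls depended on which array was left out. It was 9 without hSRY-OFF replicate 1, 11 without replicate 2, 18 without replicate 3 and 20 without hSRY-ON replicate 2. The share among all tested probes was then lower too, at 4.41%, 4.84%, 6.93% and 8.41%. Without hSRY-ON replicate 1 or replicate 3 the count was again 34.

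**Figure D1:**
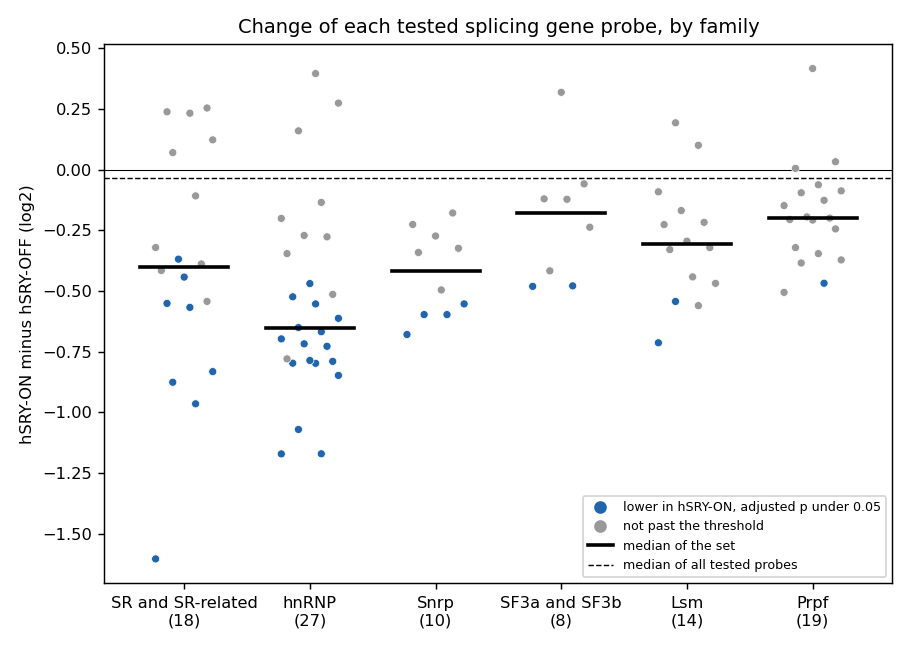
Each point is 1 of the 96 tested probes, with its family on the x axis (number of probes in brackets) and its change, hSRY-ON minus hSRY-OFF on the log2 scale, on the y axis. Blue points passed the limma test at an adjusted p under 0.05, grey points did not, bars are family medians and the dashed line is the median of all tested probes (-0.03); the 34 blue points all lie below 0 and the median is lowest for the hnRNPs (-0.65).

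Families differed in how many members were called. Of the tested probes, 17 of 27 hnRNP probes were called lower (63.0%, median change -0.65), 8 of 18 of the SR and SR-related family (44.4%, median -0.40) and 4 of 10 Snrp probes (median -0.42, all 10 negative). In the remaining families the counts were 2 of 8 SF3a and SF3b probes (25%, median -0.18), 2 of 14 Lsm probes (14.3%, median -0.31) and 1 of 19 Prpf probes (5.26%, median -0.20). The background for all of these shares is the 13.3% of all tested probes called lower. Without hSRY-OFF replicate 1, 2 or 3 the SR count was 2 each time, and the hnRNP count was 6 without hSRY-OFF replicate 1, 8 without replicate 2 and 11 without hSRY-ON replicate 2. Differences between families were not tested, since probes are not replicates of a condition.

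The classical SR proteins, which bind exonic enhancers and recruit the U1 and U2 snRNPs, divided into lowered and unlowered members. Of their 13 tested probes (8 genes), 8 probes in 6 genes were lower (61.5%, against 13.3% of all tested probes). Srsf7, whose protein also takes part in the export of messenger RNA, had the largest fall of any member. Its log2 intensity was 11.01, 10.88 and 11.02 in hSRY-OFF and 9.51, 9.01 and 9.58 in hSRY-ON lung. The groups lay more than 1 log2 unit apart, a fall of 1.60 on the log2 scale (SE 0.17, limma adjusted p = 0.00183), or 3.04-fold.

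Srsf3, the smallest of the SR proteins, fell on both of its probes. The first read 10.11, 9.83 and 10.09 in hSRY-OFF and 9.01, 8.68 and 9.44 in hSRY-ON lung, a change of -0.96 (SE 0.21, limma adjusted p = 0.0157). The second changed by -0.83 (SE 0.20, limma adjusted p = 0.0228). On both, hSRY-ON replicate 3 was the highest hSRY-ON array and still lay under every hSRY-OFF array. Neither call held when hSRY-OFF replicate 1 or replicate 3 was dropped.

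Srsf1, the founding SR protein, read 13.03, 12.97 and 13.06 in hSRY-OFF and 12.58, 12.42 and 12.42 in hSRY-ON lung on 1 probe, a change of -0.55 (SE 0.11, limma adjusted p = 0.0131). Its other probe changed by -0.44 (SE 0.12, limma adjusted p = 0.0368). Srsf9, a short SR protein related to Srsf1, read 11.67, 11.71 and 11.72 against 11.12, 11.08 and 11.20, a change of -0.57 (SE 0.11, limma adjusted p = 0.0106). For both genes the groups did not overlap and the spread within a group was small beside the difference. Srsf4, a long member of the family, changed by -0.37 (limma adjusted p = 0.0488), close to the threshold.

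The 3 probes of Srsf2, an exonic enhancer protein also known as SC35, all had lower values in every hSRY-ON array, but 1 passed the test. That probe read 10.13, 10.24 and 10.16 against 9.87, 8.97 and 9.07, a change of -0.88 (SE 0.24, limma adjusted p = 0.0353). hSRY-ON replicate 1 stayed near the hSRY-OFF arrays on it. The other probes changed by -0.54 (limma adjusted p = 0.0803) and -0.39 (limma adjusted p = 0.0741).

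Srsf5 and Srsf6 gave another picture. One Srsf5 probe read 12.53, 12.63 and 12.53 in hSRY-OFF and 12.77, 12.88 and 12.76 in hSRY-ON lung, so that the groups separated with hSRY-ON on top. The change, 0.24 (SE 0.11, limma adjusted p = 0.147), did not pass the threshold, although it did so without background correction (limma adjusted p = 0.0489) and with a trended robust fit (limma adjusted p = 0.0453). The second Srsf5 probe changed by 0.12 (SE 0.19) and that of Srsf6 by 0.07 (SE 0.13, limma adjusted p = 0.708), both with overlapping groups. The SR-related members (Sfswap, Clasrp, Srek1, Sugp2 and Srsf11) had 5 tested probes, 0 of them called, with changes from -0.42 to 0.25.

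**Figure D2:**
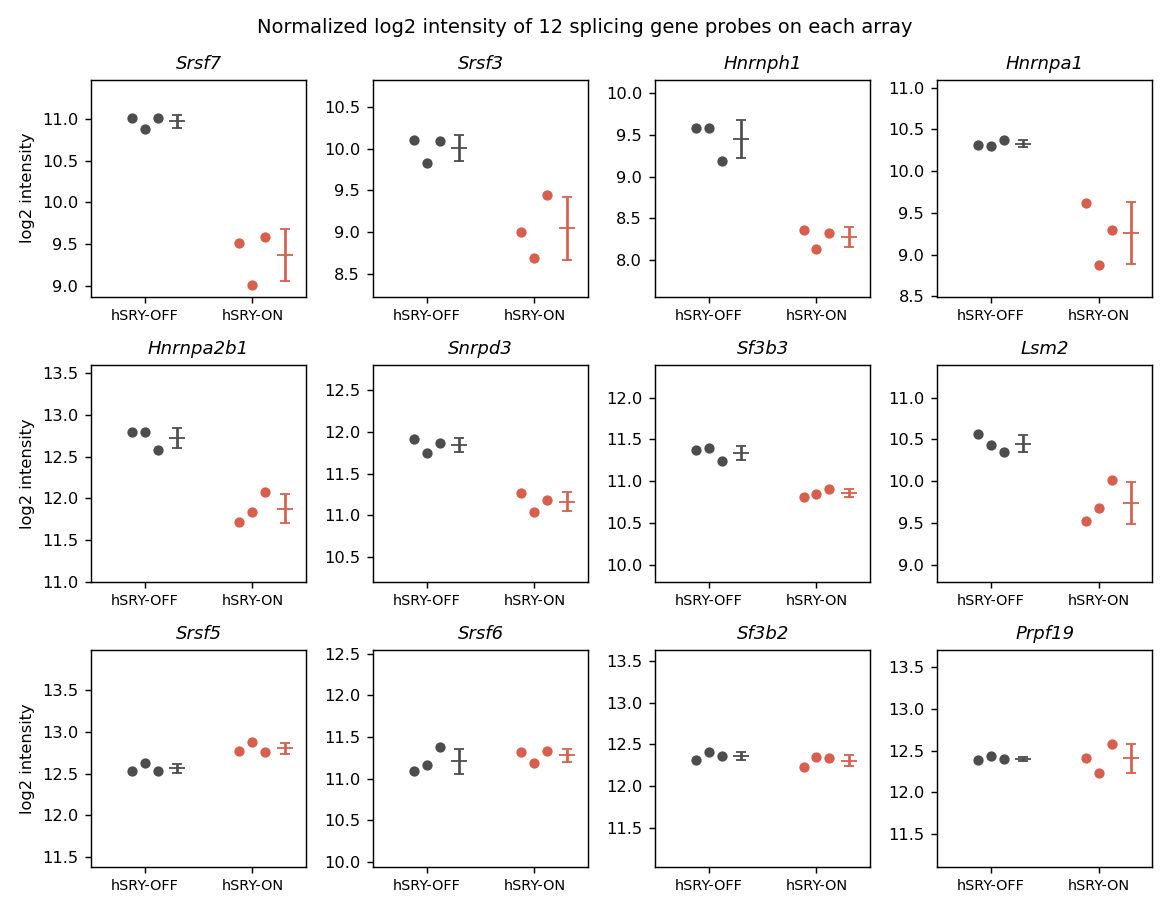
Normalized log2 intensity (y axis, each panel spanning 2.6 log2 units) of 12 splicing gene probes, chosen after their values were seen, in the 3 hSRY-OFF (dark grey) and 3 hSRY-ON (red) arrays, ordered from replicate 1 on the left to 3; the bar beside each group is its mean ± SD (n = 3). The 8 probes of the upper rows were called lower in hSRY-ON, and the 4 of the bottom row (Srsf5, Srsf6, Sf3b2 and Prpf19) were not called.

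The hnRNPs had the highest share of calls, and among them the F and H family, which binds G-rich elements near splice sites. Here 6 of 7 tested probes were lower (85.7%, against 13.3% of all tested probes), but they stand for 2 of 3 tested genes. The median change was -0.79, and in all 7 the hSRY-ON values lay below the hSRY-OFF values. Hnrnph1 fell on each of its 5 probes, by 0.67 to 1.17 on the log2 scale, with limma adjusted p from 0.00325 to 0.0106. The probe with the smallest p read 9.58, 9.58 and 9.18 in hSRY-OFF and 8.36, 8.13 and 8.33 in hSRY-ON lung, a 2.25-fold fall (log2 change -1.17, SE 0.15). The 5 probes gave the same direction with changes that ranged over 0.5 log2 units. Hnrnpf read 11.20, 11.13 and 10.90 against 10.34, 10.45 and 10.49, a change of -0.65 (SE 0.13, limma adjusted p = 0.0120). The 1 uncalled probe was that of Hnrnph3, with a change of -0.51 (limma adjusted p = 0.0747).

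The A, B and D family holds the most abundant packaging hnRNPs, and 5 of its 7 tested probes were lower (71.4%, against 13.3% of all). Hnrnpa1, a splicing repressor, read 10.31, 10.31 and 10.37 in hSRY-OFF and 9.62, 8.87 and 9.29 in hSRY-ON lung on 1 probe, a 2.10-fold fall (log2 change -1.07, SE 0.19, limma adjusted p = 0.00900). Its second probe changed by -0.70 (SE 0.19, limma adjusted p = 0.0378). The gene has many processed copies in the genome and the probe sequences were not used here, so signal from these copies could not be set apart.

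Hnrnpa2b1, which has also been studied as an RNA transport factor, read 12.80, 12.79 and 12.58 against 11.72, 11.84 and 12.07, a change of -0.85 (SE 0.14, limma adjusted p = 0.00674). A second probe was at least 1.45-fold lower, given as a bound because 0 of the 3 hSRY-ON arrays detected it. Its limma adjusted p of 0.0222 is for the fitted change of -0.79, not for the bound. This probe entered the test through the hSRY-OFF arrays alone, and it was the 1 called member probe undetected on all hSRY-ON arrays. A further probe was detected on no array. Hnrnpab, whose protein binds single-stranded nucleic acids, read 13.16, 13.14 and 13.29 against 12.69, 12.16 and 12.35, a change of -0.80 (SE 0.16, limma adjusted p = 0.0127). The groups did not overlap for either gene. Hnrnpdl, in contrast, had 2 uncalled probes of opposite sign, 0.16 and -0.28.

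Among the other hnRNPs, 6 of 13 tested probes were lower (46.2%, against 13.3% of all). Hnrnpc, which binds uridine tracts and measures nascent RNA, read 13.85, 13.81 and 13.81 in hSRY-OFF and 13.34, 13.31 and 13.41 in hSRY-ON lung on 1 probe, a change of -0.47 (SE 0.11, limma adjusted p = 0.0188). Its other probe changed by -0.73 (SE 0.15, limma adjusted p = 0.0133). Hnrnpm fell on all 3 probes, with changes of -0.52, -0.55 and -0.72 and limma adjusted p from 0.0280 to 0.0346.

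The probes of Hnrnpk, a poly(C)-binding protein, disagreed in size. One read 12.27, 12.26 and 11.99 against 11.61, 11.52 and 11.55, a change of -0.61 (SE 0.12, limma adjusted p = 0.0134). The other changed by -0.13 (SE 0.13, limma adjusted p = 0.455) with overlapping groups, and 1 more was not tested. Hnrnpul1, a relative of the nuclear scaffold protein hnRNP U, had uncalled probes of both signs (0.40, 0.27 and -0.35). The first pair was called higher when hSRY-ON replicate 1 was left out (changes of 0.66 and 0.54, limma adjusted p = 0.0336 and 0.0222). Probes of Hnrnpu, Hnrnpd, Hnrnpr, Hnrnpa3 and Hnrnph2 were not detected on enough arrays to be tested, which says nothing about these genes in lung.

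Turning to the snRNP core, all 10 tested Snrp probes had negative changes and 4 were called lower. Of all tested probes, 53.2% had negative changes and 13.3% were called lower. Snrpd3, an Sm ring protein, read 11.91, 11.75 and 11.87 in hSRY-OFF and 11.26, 11.04 and 11.19 in hSRY-ON lung, a change of -0.68 (SE 0.12, limma adjusted p = 0.00852). Snrpd1, its ring partner, read 11.90, 11.74 and 11.89 against 11.27, 10.97 and 11.49 on 1 probe, a change of -0.60 (limma adjusted p = 0.0316), and changed by -0.55 on the other (limma adjusted p = 0.0355). In both genes every hSRY-ON array lay under every hSRY-OFF array.

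Snrpa, the U1 snRNP protein that binds stem loop II, changed by -0.60 on 1 probe (SE 0.13, limma adjusted p = 0.0180) and by -0.50 on the other (limma adjusted p = 0.0637). The other Sm genes had smaller values that did not pass. Snrpd2 changed by -0.34 (limma adjusted p = 0.0832), Snrpb by -0.27 and -0.23, and Snrpg by -0.18. Snrnp70, which also belongs to U1, changed by -0.32 (limma adjusted p = 0.165). Snrpe and Snrpb2 were not tested, and no symbol Snrpn is on the array.

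SF3a and SF3b, which secure the U2 snRNP on the branch point, had 2 called probes in 8. Sf3b3 read 11.37, 11.40 and 11.24 in hSRY-OFF and 10.81, 10.85 and 10.91 in hSRY-ON lung, a change of -0.48 (SE 0.11, limma adjusted p = 0.0205). Sf3a1 read 10.68, 10.64 and 10.47 against 9.92, 10.15 and 10.30, the same size of change (-0.48, SE 0.14) with a limma adjusted p of 0.0434. The groups of both genes were separate, by a wider margin for Sf3b3. The Sf3a1 call was lost in 10 of 19 other settings, among them cyclic loess, median scaling and 5 of the 6 fits without 1 array. Sf3b4 and Sf3a3 did not pass, with changes of -0.42 (limma adjusted p = 0.150) and -0.24 (limma adjusted p = 0.233). Sf3b1, the branch point subunit mutated in blood disorders, was detected on 3 of 6 arrays, near background, with a change of 0.32 (SE 0.20, limma adjusted p = 0.264).

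The Lsm2 to Lsm8 ring binds the end of U6 snRNA, and 2 of its 8 tested probes were lower. Lsm2 read 10.56, 10.44 and 10.36 in hSRY-OFF and 9.52, 9.68 and 10.02 in hSRY-ON lung, a change of -0.71 (SE 0.16, limma adjusted p = 0.0175). A dimmer Lsm2 probe changed by -0.56 (SE 0.22, limma adjusted p = 0.106). Lsm4 read 11.97, 11.95 and 11.99 against 11.19, 11.47 and 11.62, a change of -0.54 (SE 0.14, limma adjusted p = 0.0289). On the called probe of each gene, hSRY-ON replicate 3 was nearest to the hSRY-OFF arrays without reaching them, and on the dimmer Lsm2 probe the groups overlapped. Their ring partner Lsm3 changed by -0.33 (limma adjusted p = 0.139) and Lsm5 by 0.10. Of the 6 tested probes of Lsm genes outside this ring, 0 were called, among them Lsm10 of the U7 particle (0.19, limma adjusted p = 0.375) and Lsm12 (-0.47 and -0.29).

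Prpf genes were the family with the lowest share of calls, 5.26% against the 13.3% of all tested probes. Prpf8, the U5 protein at the centre of the catalytic spliceosome, read 10.12, 10.25 and 10.17 in hSRY-OFF and 10.06, 9.60 and 9.84 in hSRY-ON lung, a change of -0.35 (SE 0.15, limma adjusted p = 0.120). Its second probe changed by -0.21 (limma adjusted p = 0.366). The first pair of groups did not overlap but lay close together.

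Prpf19, the ubiquitin ligase of the activation complex, had 3 uncalled probes that differed from each other, with changes of -0.38, -0.06 and 0.01 (limma adjusted p = 0.0721, 0.779 and 0.979). Prpf3, a U4/U6 protein, had 5 tested probes, all negative, of which 1 was called at -0.47 (limma adjusted p = 0.0491), and the call was lost in 11 of 18 other settings. Of the rest, 3 changed by -0.24 to -0.15 and 1 was not detected in hSRY-ON lung. Prpf18, a second-step factor, read 10.94, 11.14 and 10.97 against 11.27, 11.75 and 11.27. Its groups were separate with hSRY-ON higher, and the change of 0.42 (SE 0.16, limma adjusted p = 0.101) did not pass. Prpf31 was near background (change -0.32, limma adjusted p = 0.372), and the probes of Prpf4b, a kinase, were not tested.

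Where a gene had more than 1 tested probe, the probes mostly gave 1 direction. Of 24 such genes, 21 had changes of the same sign on every probe, 8 were called lower on all, 5 on some and 11 on none. The 3 with both signs were Hnrnpdl, Hnrnpul1 and Prpf19, none of them called. In total, 13 of the 75 genes had no tested probe. Of the 33 untested probes, 31 were detected on no array. The detection filter could favour genes high in 1 group, so the counts were repeated on the 87 member probes detected on all 6 arrays, of which 33 were lower (37.9%) against 14.3% of all probes so selected.

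**Figure D3:**
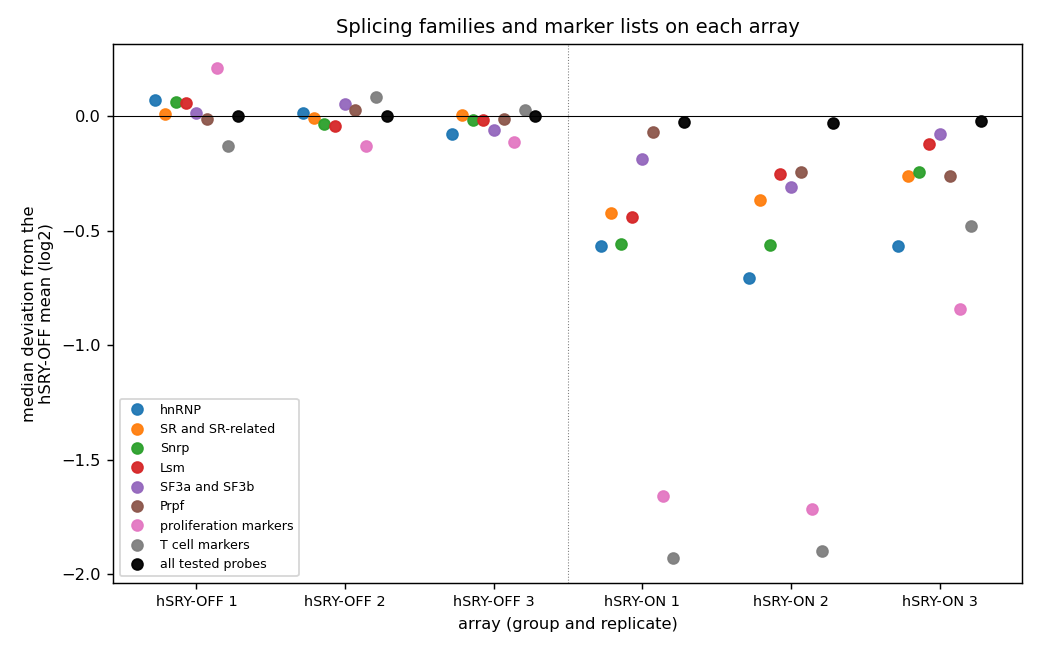
For each array (x axis, group and replicate), points give the median deviation of the probes of a set from their hSRY-OFF means (y axis, log2 units) for 6 splicing families, 2 marker lists and all tested probes. hnRNP medians are -0.56, -0.70 and -0.57 on the 3 hSRY-ON arrays, and the marker lists lie furthest from 0 on hSRY-ON replicates 1 and 2.

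Markers of dividing cells and of T cells fell in the same animals. Of 12 listed proliferation genes 11 are on the array and 10 were tested. All of these but Pcna (-0.41, limma adjusted p = 0.104) were lower on at least 1 probe, among them Mcm2, Mcm3 and Top2a, and the log2 of their summed level ran from 13.96 to 14.32 in hSRY-OFF and from 12.37 to 13.43 in hSRY-ON lung. Of 8 thymocyte genes, Cd8a, Cd4, Rag1 and Dntt were not detected, and 3 of the other 4 (Cd3e, Cd3g and Lck) were lower, with summed levels of 10.08 to 10.28 and 8.19 to 9.63. Of 5 macrophage genes, 4 were higher, with summed levels of 14.49 to 14.62 and 14.97 to 15.19. Of 5 erythroid genes 0 were called, and of 5 cardiac genes Nppa was higher. Of the 6 lung genes, Sftpb was higher on both probes (0.67 and 0.52, limma adjusted p = 0.00800 and 0.0247) and the other 5 were not called, with Pecam1 at -0.40 and -0.28 and below hSRY-OFF on every hSRY-ON array. Lung markers summed to 16.79 to 16.89 and 16.87 to 16.94.

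On hSRY-ON replicate 3 the median deviation of proliferation probes was -0.84, against -1.66 and -1.71 on the others, and that of thymocyte probes was -0.48, against -1.93 and -1.90. The hnRNP median on that array was -0.57, beside -0.56 and -0.70 on replicates 1 and 2. The Snrp median was -0.24 there, beside -0.56 and -0.56, that of the SR family -0.26, beside -0.42 and -0.37, and that of Lsm -0.12, beside -0.44 and -0.25. The SF3a and SF3b median was -0.08, beside -0.19 and -0.31, and that of Prpf -0.26, beside -0.07 and -0.24. Snrp, SR, Lsm and SF3 medians were nearest to the hSRY-OFF mean on replicate 3. The hnRNP medians of replicates 1 and 3 were nearly equal, and the Prpf median was furthest from that mean on replicate 3. Without it, 34 member probes were again lower (28 of them in common) and the median change was -0.39. The part of these cell markers in the result was not tested.

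The rest of the splicing pathway was described from a list of 144 genes, of which 123 are on the array and 100 were tested. Of these 25 were lower and 5 higher, and the median change of their 155 probes was -0.24, beside -0.03 for all tested probes. By probe, 31 of the 155 were called lower and 3.23% higher, against 13.3% and 13.6% of all tested probes. The lower genes numbered 6, 8 and 13 without hSRY-OFF replicate 1, 2 and 3 and 16 without hSRY-ON replicate 2, and the higher genes 2, 3, 3 and 2.

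Calls were few among the listed genes of the machinery itself, a list that leaves out the members above. None of the 8 tested tri-snRNP genes (17 probes) or the 3 tested genes of the minor spliceosome (3 probes) was called. At an unadjusted p under 0.05 there were 3 and 0 probes. With 13.3% of all tested probes called lower, 0 calls in sets this small say little. Of the 21 tested probes of 16 catalytic core and helicase genes, 1 was lower and 1 higher (4.76% each, against 13.3% and 13.6% of all tested probes). Dhx15, the helicase that takes spliceosomes apart, was lower on 1 probe (-0.55, SE 0.16, limma adjusted p = 0.0405). Its other probe changed by -0.51 (SE 0.46, limma adjusted p = 0.437). Syf2, of the Prp19-associated complex, was higher on 1 probe (0.44, SE 0.12, limma adjusted p = 0.0400) and changed by 0.20 on another (limma adjusted p = 0.300). U2af2, which reads the polypyrimidine tract, changed by -0.70 (limma adjusted p = 0.0386) and Cherp by -0.46 (limma adjusted p = 0.0219). They were the 2 calls among 11 genes of U1, U2 and branch point recognition. That is 14.3% of the tested probes of these genes, near the 13.3% of all tested probes.

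Of 13 tested genes of the SMN complex and Sm assembly, 3 were lower and 0 higher. By probe, 3 of 23 were called lower (13.0%), near the 13.3% of all tested probes. Clns1a, the Sm chaperone pICln, read 10.86, 10.82 and 10.79 in hSRY-OFF and 10.33, 10.28 and 10.35 in hSRY-ON lung, a change of -0.50 (SE 0.10, limma adjusted p = 0.0147). Its other probes changed by -0.35 and -0.31 (limma adjusted p = 0.0778 and 0.0893). The probes of Gemin4, of the SMN complex, disagreed. A dim one was at least 1.10-fold lower, a bound, since no hSRY-ON array detected it. Its limma adjusted p of 0.0266 is for the fitted change of -0.62, not for the bound. The other tested probes, detected on all arrays, changed by -0.15 and -0.13 with overlapping groups. Srpk1, the kinase that phosphorylates SR proteins, changed by -0.48 (SE 0.12, limma adjusted p = 0.0260). It was the 1 call among 6 kinase genes, 10% of their tested probes. Among 13 genes of the exon junction complex and its neighbours 4 were lower (6 of 20 probes, 30%). These included Rnps1, an SR-related protein bound to spliced RNA (-0.62 and -0.69), and Rbm8a (at least 1.91-fold lower, undetected in hSRY-ON lung). The limma adjusted p of Rbm8a, 0.00496, is for its fitted change of -1.25, not for the bound.

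**Figure D4:**
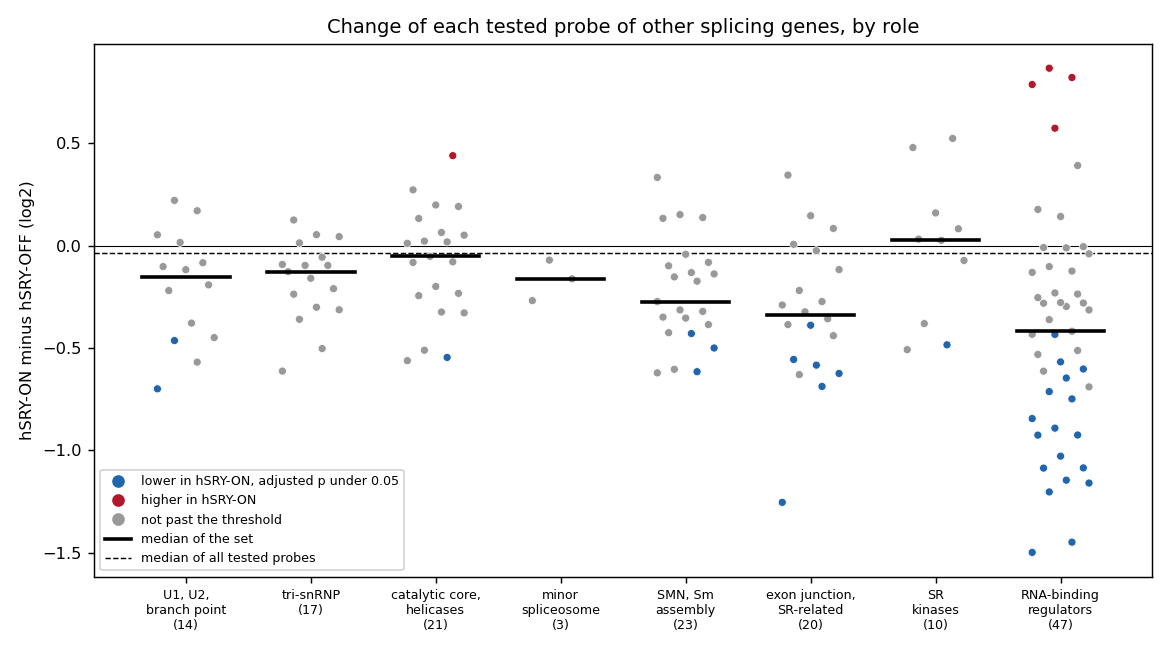
Change, hSRY-ON minus hSRY-OFF on the log2 scale (y axis), of each tested probe of the 100 other splicing genes, by role (x axis, number of probes in brackets); blue and red points were called lower and higher by limma at an adjusted p under 0.05, bars are medians and the dashed line is the median of all tested probes. RNA-binding regulators hold 18 of the 31 lower probes and 4 of the 5 higher ones.

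RNA-binding splicing regulators outside the hnRNP symbols moved in both directions, with 14 of 30 genes lower and 4 higher, and a median change of -0.42 over 47 probes. By probe, 38.3% were called lower and 8.51% higher, against 13.3% and 13.6% of all tested probes. Fubp1, a single-strand nucleic acid binding protein that also acts on Myc, read 9.48, 9.47 and 9.37 in hSRY-OFF and 8.57, 8.27 and 8.22 in hSRY-ON lung, a 2.12-fold fall (log2 change -1.09, SE 0.13, limma adjusted p = 0.00283). Rbm10, an exon-skipping regulator, averaged 7.97 ± 0.14 against 6.95 ± 0.12 (SD, n = 3), without overlap, a change of -1.03 (SE 0.13, limma adjusted p = 0.00304). A second, dimmer Rbm10 probe changed by -0.12 (SE 0.24, limma adjusted p = 0.731) with overlapping groups.

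A gene was counted as higher where 1 of its probes was called, and the 5 such genes were a mixed set. Esrp1, an epithelial splicing regulator, read 10.92, 10.80 and 10.92 in hSRY-OFF and 11.68, 11.76 and 11.66 in hSRY-ON lung, a 1.77-fold rise (log2 change 0.82, SE 0.11, limma adjusted p = 0.00350). Tardbp, which encodes the RNA-binding protein TDP-43, read 10.01, 9.97 and 10.05 against 10.71, 10.89 and 10.78, a change of 0.79 (SE 0.11, limma adjusted p = 0.00420) on that probe. On these probes of Esrp1 and Tardbp both groups were tight and far apart. The other tested Tardbp probes had the opposite sign and did not pass, with changes of -0.10 (limma adjusted p = 0.560) and -0.23 (limma adjusted p = 0.202), so the direction of Tardbp depended on the probe. Cirbp, a cold-inducible RNA-binding protein (0.87, limma adjusted p = 0.0317), and Pspc1, a paraspeckle protein (0.57, limma adjusted p = 0.0272), completed the 5 with Syf2.

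**Figure D5:**
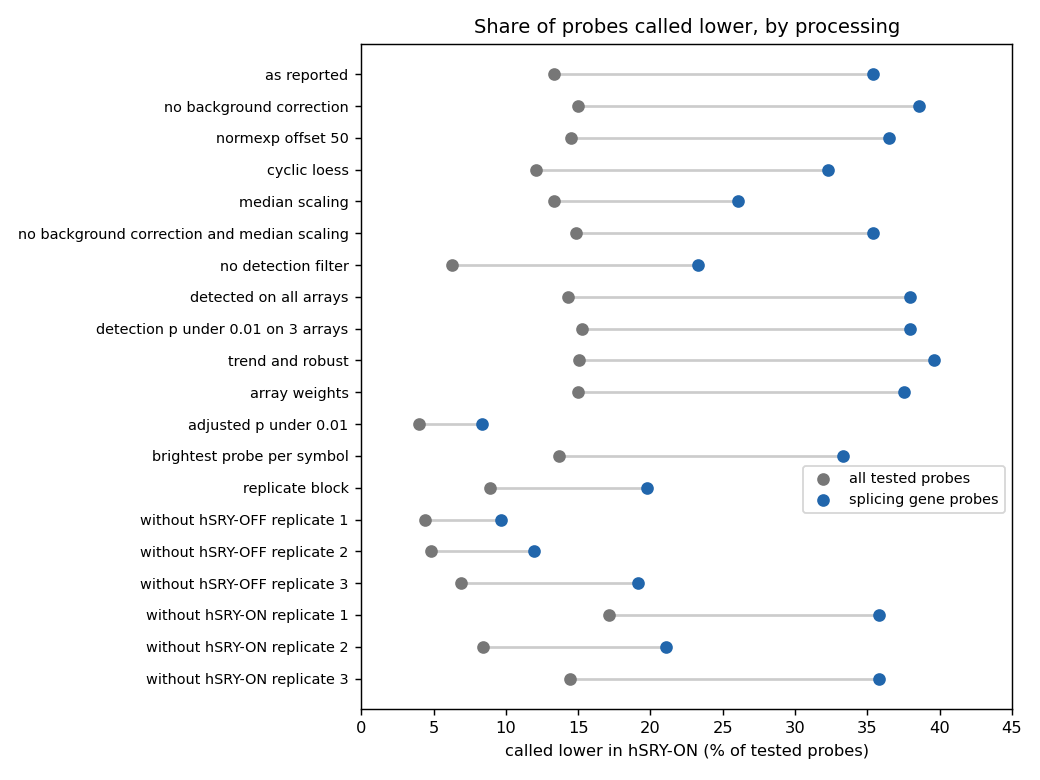
Share of tested probes called lower in hSRY-ON (x axis, percent) among splicing gene probes (blue) and all tested probes (grey) under each processing (y axis). The share is higher for splicing gene probes in each of the 20 settings shown, from 8.33% against 4.0% at an adjusted p under 0.01 to 39.6% against 15.1% with a trended robust fit.

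The direction of the calls did not turn under other processing, but their number did. The splicing gene share called lower exceeded that of all tested probes in each of the 19 alternatives, and no called probe took the opposite sign in any of them. At an adjusted p under 0.01, 8 member probes remained, and with median scaling in place of quantile normalization there were 25. Among the named member probes, those of Srsf7 and Snrpd3, 1 probe each of Hnrnpa1 and Hnrnpa2b1 and 4 of the 5 of Hnrnph1 kept their calls in every alternative that tested them. The other called probes among the named members each lost the call in 2 to 11 alternatives, mostly on leaving out 1 array or at the stricter threshold.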

How the data were processed

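Groups, strain, age, sex and replicate numbers were taken from the sample labels. The authors deposited a table of intensity values (mean bead signal per probe and array, linear, neither background-corrected nor normalized) with a detection p-value for each, the share of negative controls brighter than the probe. How beads were summarised is not given in the sources used here. The submitters' processing notes name limma, and the methods name TCC, a count method. Since the deposited values are intensities, limma 3.58.1 in R 4.3.3 was used. Intensities were processed as in neqc (background from the detection p-values, offset 16, quantile normalization, log2), which compresses changes near background and removes overall shifts. Probes detected (p under 0.05) on 3 or more of the 6 arrays were fitted with lmFit and eBayes without covariates, two-sided, with Benjamini-Hochberg adjustment over all of them at 0.05. No other columns of samples were present, and 0 arrays were identical. A probe not detected on any array of a group is given as a bound against the lowest detected signal of those arrays. Its p-value comes from the fitted change and does not apply to the bound.

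Of the 79 member symbols, 78 were matched to a current name in RefSeq (GRCm38.p6), 27 of them through a synonym. Sfrs10, a synonym of more than 1 gene, kept its name. Probes of a gene were not averaged, and a gene counts as called where any of its probes was. Promoters are the first window listed per gene. Members without a listed window included Hnrnpll, Lsm1, Lsm12, Lsm4, Prpf18, Sf3b4, Sf3b5, Sfrs10, Snrpb and Snrpd1.

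Named genes were the 4 with the smallest p in each family, members called against their family, genes whose probes disagreed, a fixed set of well-known members and, for other splicing genes, the 2 with the smallest p per direction and role. Further members were named after their values were seen. The members and lists were chosen with earlier results of these data known. The precision is limited by 3 arrays a group. On simulated data with 3 arrays a group (15117 probes), 100 probes changed by log2 1 and 100 by log2 2. Of those tested, 25.5% and 88.5% were called, with 7 false among 117 calls. In the real data 3728 probes were called, so the adjusted threshold there was less strict and these shares do not apply to it. Alternatives covered background, offset, normalization, detection filter, variance model, array weights, threshold, 1 probe per symbol, a replicate block and leaving out each array.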

Additional observations from a re-analysis of the deposited data

How the results depend on the processing

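Against 34 lower member probes, the count was 8 (6 hnRNP, 1 SR) at an adjusted p under 0.01, 22 (10 hnRNP, 5 SR) with the brightest probe per symbol, where fewer probes were tested, and 19 (5 SR) with the replicate number as a block. Median scaling left 5 SR probes. Leaving out 1 array gave 9 to 34 lower members, 6 to 18 hnRNP and 2 to 7 SR probes, a median change of -0.39 to -0.33, and 6 to 32 lower and 2 to 4 higher genes among the other splicing genes. The lowest counts came without hSRY-OFF replicate 1 (9 members, 6 hnRNP, 2 SR), replicate 2 (11, 8 and 2) or replicate 3 (18 members, 2 SR), and hSRY-ON replicate 2 (20 members, 11 hnRNP). Leaving out hSRY-ON replicate 1 or replicate 3 also removed 1 array and gave 34 lower members. The cause of the lower counts was not tested. Higher members numbered 0 and became 1 without background correction, with or without median scaling (Srsf5), 1 without a detection filter (Scaf4), 2 with a trended robust fit (Prpf18 and Srsf5) and 0 to 2 on leaving out 1 array (2 Hnrnpul1 probes without hSRY-ON replicate 1). The median change of -0.35 was -0.22 without background correction, -0.25 with median scaling too, -0.31 at an offset of 50 and -0.23 without the filter. Other splicing genes called lower and higher (25 and 5) were 8 and 2 at an adjusted p under 0.01, and 15 and 3 with the replicate block. Deviations of same-numbered arrays of the groups had correlations of -0.11, 0.10 and -0.09. With 3 arrays a group, these cannot show whether the numbers pair animals. Of the values of 55 named probes under other settings, 864 stayed on their side of the threshold, 117 fell short of it and 21 passed it. A change of sign was counted as a reversal only where the reported or the other value passed the threshold, and there were 0. Uncalled values could change sign, as on Prpf19 probes (-0.17 to 0.06 and -0.08 to 0.10). Dim probes near background limit Sf3b1, Prpf31 and others to weak statements.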
